A study of Mus musculus with 60 samples.

Results

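Apobec3 and 4 other genes known for restricting or admitting retroviruses (Bst2, Samhd1, Mov10 and Xpr1) were followed in spleen leukocytes of 3 mouse strains, as 5 of the 18194 genes that the arrays name. The genes were chosen by name with measured values of these mice in view, and all 16 of their probe sets were taken, out of 45037. A probe set is a group of short oligonucleotides that reports 1 transcript on the Affymetrix 430A or 430B array, and there was 1 for Apobec3, 1 for Bst2, 5 for Samhd1, 2 for Mov10 and 7 for Xpr1. All 16 passed the filter on low values (a signal of at least 50 in at least 5 mice), as did 38293 probe sets in all, and Xpr1 1426053_a_at passed with exactly 5 mice. RNA came from untreated, uncultured spleen leukocytes of female mice: NOD mice, an inbred strain that develops autoimmune diabetes, and NON and C57BL/6 mice as controls. There were 5 mice of each strain at 4 weeks and another 5 at 2 weeks of age. No allele, transgene or treatment was added in any group, so each comparison between strains sets whole inbred genomes against each other.

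Restriction factors act at separate steps of the retroviral cycle. Apobec3 is a cytidine deaminase that is packaged into virions and impairs reverse transcription, Samhd1 breaks down the deoxynucleotides that reverse transcription needs, Mov10 is an RNA helicase that limits retroelements, and Bst2 (tetherin) holds budding virions at the cell surface. Xpr1 stands on the other side, as a phosphate exporter that serves as the entry receptor of xenotropic and polytropic murine leukemia viruses. Mice carry many endogenous retroviruses, and in mice Apobec3 is known as the gene behind Rfv3, a locus of recovery from Friend virus infection.

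Signals are MAS 5.0 values, scaled so that each array has a trimmed mean near 250. The median signal of an array lay between 84.8 and 125.6 for 430A and between 125.8 and 169.3 for 430B, and the number of arrays limits the precision. NOD replicate 3 of 4 weeks stood apart from its group, with a median correlation of 0.863 with the other mice on 430A and 0.685 on 430B. The Gapdh 3′/5′ ratio, a measure of RNA integrity, lay between 0.744 and 4.00. Values are mean signal ± SD, n = 5 mice, and log2 differences are on the log2(signal + 10) scale ± SE. Signals of different probe sets are not set against each other. Which measured values bore on the choice of the 5 genes is not recorded, so differences between strains are described here without a test. Changes with age were tested with limma and adjusted over all 38293 probe sets. Whether the choice also rests on changes with age is not recorded, so the p-values of the 5 genes are read with that limit.

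The signal of the 1 Apobec3 probe set (1417470_at, chromosome 15) was low in NOD and NON mice and high in C57BL/6 mice at both ages. Whether the sequence under its oligonucleotides differs between the strains was not tested. At 4 weeks the signals were 216.8, 184.6, 113.4, 174.7 and 177.5 in NOD mice, 127.8, 148.1, 249.4, 232.3 and 172.1 in NON mice, and 1173.4, 1218.0, 1627.8, 1720.8 and 1601.8 in C57BL/6 mice. At 2 weeks they were 152.2, 166.2, 227.3, 167.4 and 243.0 in NOD mice, 191.4, 182.8, 164.8, 253.3 and 266.9 in NON mice, and 1245.8, 1197.5, 1305.1, 1536.5 and 1774.0 in C57BL/6 mice. The 20 NOD and NON mice lay between 113.4 and 266.9 and the 10 C57BL/6 mice between 1173 and 1774, so these did not overlap, while NOD and NON mice overlapped at both ages.

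Means at 4 weeks were 173 ± 37.5 in NOD, 186 ± 52.9 in NON and 1468 ± 253 in C57BL/6 mice. The NOD mean was thus 8.47-fold lower and the NON mean 7.90-fold lower than that of C57BL/6, with log2 differences of -3.02 ± 0.23 and -2.94 ± 0.23. Means at 2 weeks were 191 ± 40.9 in NOD, 212 ± 45.3 in NON and 1412 ± 241 in C57BL/6 mice, 7.38-fold and 6.66-fold lower in NOD and NON (log2 -2.83 ± 0.20 and -2.69 ± 0.20). Without NOD replicate 3 of 4 weeks the log2 difference of NOD from C57BL/6 was -2.88 at 4 weeks. NOD minus NON was -0.08 ± 0.23 at 4 weeks and -0.14 ± 0.20 at 2 weeks, within 1 standard error. Of all probe sets, 0.556% at 4 weeks, 0.752% at 2 weeks and 0.264% at both ages had all C57BL/6 mice above all mice of both other strains. These shares are background only, since the choice of Apobec3 may rest on the same contrast.

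The Apobec3 signal did not pass the test for a change with age in any strain. The log2 change, 4 weeks minus 2 weeks, was -0.14 ± 0.21 in NOD (limma adjusted p = 0.904), -0.20 ± 0.21 in NON (adjusted p = 0.759) and 0.05 ± 0.21 in C57BL/6 (adjusted p = 0.998). The interaction test, of whether the age change differs between strains, gave an adjusted p of 0.947.

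**Figure D1:**
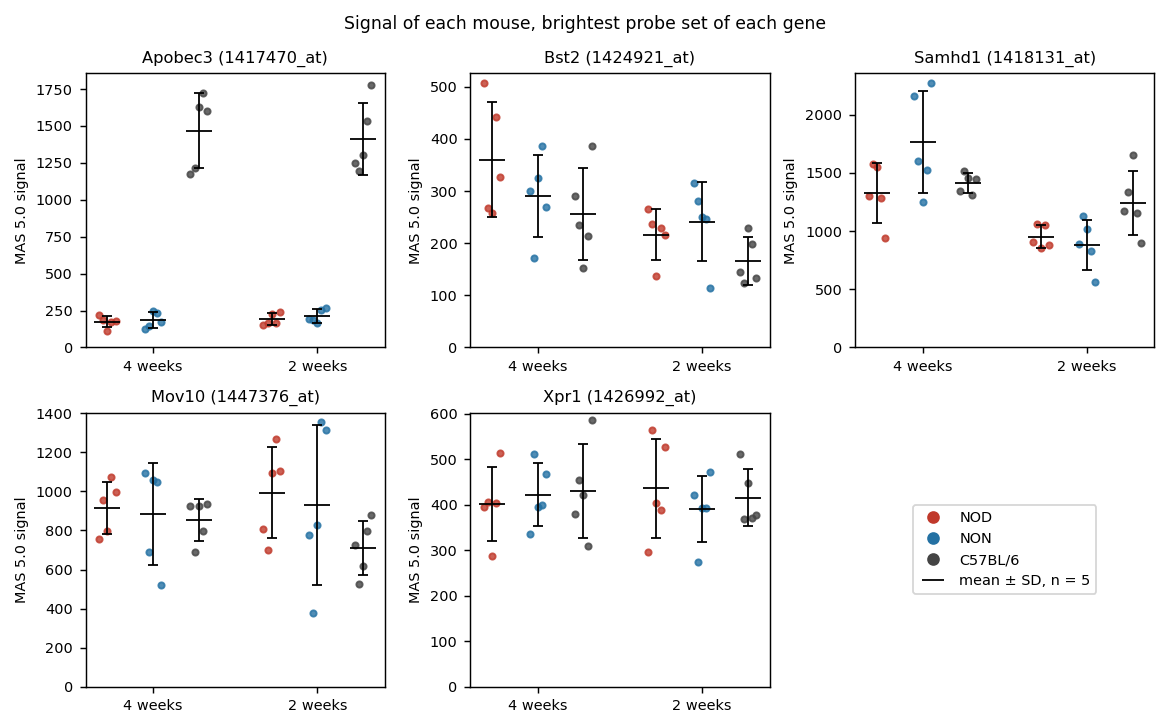
MAS 5.0 signal (linear axis from 0) of each mouse for the brightest probe set of each gene, in NOD, NON and C57BL/6 mice at 4 and 2 weeks; points are mice, and bars are mean ± SD (n = 5). Apobec3 lies at 1173 or more in all 10 C57BL/6 mice and at 266.9 or less in the other 20, while the strains overlap in the other 4 panels.

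Lymphocyte and neutrophil markers were read beside Apobec3. The summed signal of 3 B cell markers (Ms4a1, Cd79a and Cd79b) at 4 weeks was 13627 to 25122 in NOD, 19718 to 24048 in NON and 21949 to 28142 in C57BL/6 mice. At 2 weeks it was 16654 to 26850.0 in NOD, 9228 to 22535 in NON and 21563 to 28903 in C57BL/6 mice, so each strain overlapped C57BL/6 at both ages. The summed signal of 4 T cell markers (Cd3e, Cd3g, Cd4 and Cd8a) at 4 weeks was 3372 to 3654 in NOD, 2073 to 2525 in NON and 3155 to 4549 in C57BL/6 mice. At 2 weeks that sum was 1681 to 2925 in NOD, 483.8 to 1440 in NON and 2079 to 3967 in C57BL/6 mice. At both ages NOD mice overlapped C57BL/6 mice in it and NON mice lay below them. Summed over 4 neutrophil and precursor markers at 4 weeks, NON mice lay at 32655 to 46703, above C57BL/6 mice at 12852 to 22350. NOD mice, at 16957 to 28784, overlapped C57BL/6 mice in that sum, and at 2 weeks all strains overlapped. In RNA from mixed leukocytes, fewer cells of a type and less RNA per cell cannot be told apart. The part of cell type makeup in the Apobec3 levels was not tested.

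Over the 30 mice the genes whose log2 signals were most like that of Apobec3 were Cnn3, an actin-binding calponin (Pearson r = 0.961), Adi1, an enzyme of methionine salvage (0.944), and Ifi209, a member of the interferon-inducible p200 family (0.939). Ifi209 lay between 163.6 and 485.4 in NOD and NON mice and between 2946 and 4134 in C57BL/6 mice. Cnn3 lay between 197.8 and 415.6 in NOD and NON mice, and between 630.7 and 1024 in C57BL/6 mice. Adi1 lay between 132.1 and 276.7 in NOD and NON mice, and between 411.2 and 755.7 in C57BL/6 mice. The points form 2 separate clusters by strain, so these coefficients describe a strain difference that the genes share, and they are given with no p.

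**Figure D2:**
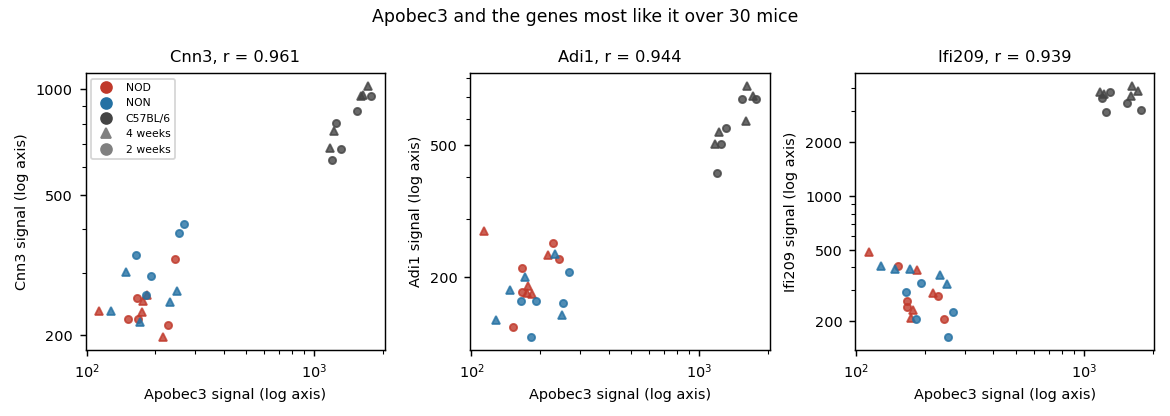
Apobec3 signal (horizontal log axis) against the signal of Cnn3, Adi1 and Ifi209 (vertical log axes) in each of the 30 mice, coloured by strain, with triangles for 4 weeks and circles for 2 weeks. The 10 C57BL/6 mice form 1 cluster at high signal and the 20 NOD and NON mice another at low signal.

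Of the other 3 measured genes of the cytidine deaminase family, 0 passed limma's F-test across strains at 4 weeks or at 2 weeks, and 0 did so at an unadjusted p under 0.05. Strain differences passed that test for 1.51% of all probe sets at 4 weeks and 1.66% at 2 weeks. Of 10 genes that act on the capsid, on viral RNA or in reverse transcription, 0 passed at 4 weeks (2 at an unadjusted p under 0.05) and 0 at 2 weeks (5 at an unadjusted p under 0.05).

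Promoter windows are shown for Apobec3 and Bst2, the members with a match to the letters marked below. Both genes are known to respond to interferon, and interferon-induced genes were followed with age in these mice. Windows are 300 bases around an annotated start in the GRCm38.p6 reference, which is the C57BL/6J sequence, from RefSeq, so they hold no NOD or NON sequence. All 5 genes had at least 1 window. Capitals mark GAAA, any 2 bases and GAAA again, the core of the interferon-stimulated response element, searched on both strands.
Apobec3, chr15:79892158-79892457, plus strand: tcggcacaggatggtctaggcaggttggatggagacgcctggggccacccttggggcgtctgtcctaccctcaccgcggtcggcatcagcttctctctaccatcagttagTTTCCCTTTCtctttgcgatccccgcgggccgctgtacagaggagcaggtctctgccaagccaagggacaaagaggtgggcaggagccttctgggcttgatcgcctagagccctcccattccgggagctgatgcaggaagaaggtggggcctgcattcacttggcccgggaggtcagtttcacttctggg
Bst2, chr8:71537423-71537722, minus strand: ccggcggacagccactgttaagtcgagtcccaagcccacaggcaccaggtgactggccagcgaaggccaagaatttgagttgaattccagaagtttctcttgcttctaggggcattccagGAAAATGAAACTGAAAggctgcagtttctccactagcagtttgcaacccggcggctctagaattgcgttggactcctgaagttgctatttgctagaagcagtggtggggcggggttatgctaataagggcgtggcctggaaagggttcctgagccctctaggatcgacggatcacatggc
The Apobec3 window held 1 match on the opposite strand, ending 130 bases before the start, and the Bst2 window held 2 overlapping matches, the first ending 120 bases before the start. A second Apobec3 window, the 2 Mov10 windows and the Samhd1 and Xpr1 windows held none. Of all 32851 windows, 3.44% held these letters on either strand. A second search was for TTC, any 3 bases and GAA (a Stat site), which 8.3% of all windows held. It gave 1 match in the Bst2 window, 1 in the Samhd1 window and 0 in the others. A match is a run of letters, and whether a factor binds there was not measured.

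Samhd1 (1418131_at, chromosome 2) was the only one of the 16 probe sets whose change with age passed the test within a strain, and it did so in NON mice. The signals of NON mice were 2164.5, 1604.3, 1246.5, 1523.2 and 2271.2 at 4 weeks, against 885.5, 1127.5, 1014.7, 825.5 and 562.1 at 2 weeks. All 5 older mice lay above all 5 younger ones, as they did for 1.67% of all probe sets. The mean was 1762 ± 438 at 4 weeks and 883 ± 214 at 2 weeks, a log2 change of 0.99 ± 0.20 (limma adjusted p = 0.0094). In NON mice 0.812% of all probe sets rose at this threshold, and whether the choice of Samhd1 rests on this change is not recorded.

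In NOD mice the same probe set gave 1300.9, 1573.7, 1551.0, 1280.9 and 938.3 at 4 weeks, against 909.5, 1064.6, 858.3, 1050.4 and 880.7 at 2 weeks, and the ages overlapped through 1 older mouse. In C57BL/6 mice it gave 1344.0, 1515.9, 1452.5, 1312.9 and 1451.1 at 4 weeks, against 1171.0, 1338.3, 1652.7, 1155.5 and 899.9 at 2 weeks, also overlapping. The log2 change was 0.46 ± 0.20 in NOD (limma adjusted p = 0.484) and 0.21 ± 0.20 in C57BL/6 (adjusted p = 0.956). The change was not shown to differ between strains, as the interaction test gave an adjusted p of 0.705 (unadjusted p = 0.029). Averaged over the 3 strains, a contrast added after the values by strain were seen, the log2 change was 0.55 ± 0.11 (adjusted p = 0.00395, with 3.19% of all probe sets passing).

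The other 4 Samhd1 probe sets did not pass in NON mice, with log2 changes from 0.31 to 0.58 and adjusted p between 0.459 and 0.819. All 5 changes were above 0 in NON mice, and 4 of 5 in NOD and in C57BL/6 mice. The brightest of these 4, 1434438_at, averaged 1311 ± 560 at 4 weeks and 915 ± 367 at 2 weeks in NON mice. The dimmest, 1444064_at, had a signal of at least 50 in 17 of 30 mice. Between the 5 probe sets the correlation over the 30 mice ran from 0.061 to 0.614 (10 pairs, median 0.42).

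Markers of other cell types were read in NON mice beside Samhd1. Of 4 T cell markers, 3 rose, and their summed signal was 2073 to 2525 at 4 weeks and 483.8 to 1440 at 2 weeks. The summed signal of the 2 NK cell markers measured (Ncr1 and Nkg7) was 1019 to 1242 at 4 weeks and 435.1 to 968.7 at 2 weeks, and 1 of the 2 rose. Of 3 plasma cell markers 1 rose (Jchain), and of 3 platelet markers 1 fell (Ppbp). No B cell, macrophage and monocyte, or plasmacytoid dendritic cell marker passed, and the ages overlapped in each sum. The B cell sum was 19718 to 24048 at 4 weeks and 9228 to 22535 at 2 weeks. For macrophages and monocytes it was 5023 to 10987 and 4660 to 6527, and for plasmacytoid dendritic cells 1269 to 1996 and 800 to 1405. Of all probe sets, 0.812% rose and 0.65% fell at the threshold in NON mice. No mouse had a T cell marker at 0, and Cd4 had the lowest single value, 38.5. The part of cell type makeup in the Samhd1 change was not tested.

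The Gapdh ratio ran from 0.967 to 3.15 in NON mice of 4 weeks and from 0.746 to 4.00 in those of 2 weeks. At 4 weeks replicates 1 and 5 had the highest ratios, 3.15 and 2.31, and the highest 1418131_at signals, 2164.5 and 2271.2. At 2 weeks replicate 2 had the highest ratio, 4.00, and the highest signal, 1127.5. With that ratio as a covariate the Samhd1 1418131_at change in NON mice was 0.92 (limma adjusted p = 0.0173). Leaving out any 1 NON mouse gave 0.84 to 1.11, with adjusted p up to 0.0479, which was the value without NON replicate 5 of 2 weeks.

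Between strains, Samhd1 1418131_at averaged 1329 ± 257 in NOD, 1762 ± 438 in NON and 1415 ± 84.2 in C57BL/6 mice at 4 weeks. At 2 weeks it averaged 953 ± 97.5 in NOD, 883 ± 214 in NON and 1243 ± 277 in C57BL/6 mice, and every pair of strains overlapped at both ages. The genes most like Samhd1 over the 30 mice were Helz2, an interferon-inducible helicase and coactivator (r = 0.880), Cd74, the invariant chain of MHC class II (0.871), and Crlf3, a cytokine receptor-like factor (0.871).

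Nucleotide supply genes, which work against Samhd1 in the cell, include Tk1, thymidine kinase. In NON mice Tk1 averaged 434 ± 124 at 4 weeks and 1035 ± 377 at 2 weeks and fell by 1.21 ± 0.30 on the log2 scale (limma adjusted p = 0.0342), 1 of 8 measured genes of the list to pass there, where 0.65% of all probe sets fell. That call was lost in 10 of 20 other settings, with adjusted p up to 0.143, the value without NON replicate 5 of 2 weeks. The summed signal of 3 cycling cell markers (Mki67, Top2a and Cdk1) in NON mice was 3104 to 5666 at 4 weeks and 4287 to 8518 at 2 weeks. Of these 3 markers 0 passed there, and the part of dividing cells in the Tk1 change was not tested.

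**Figure D3:**
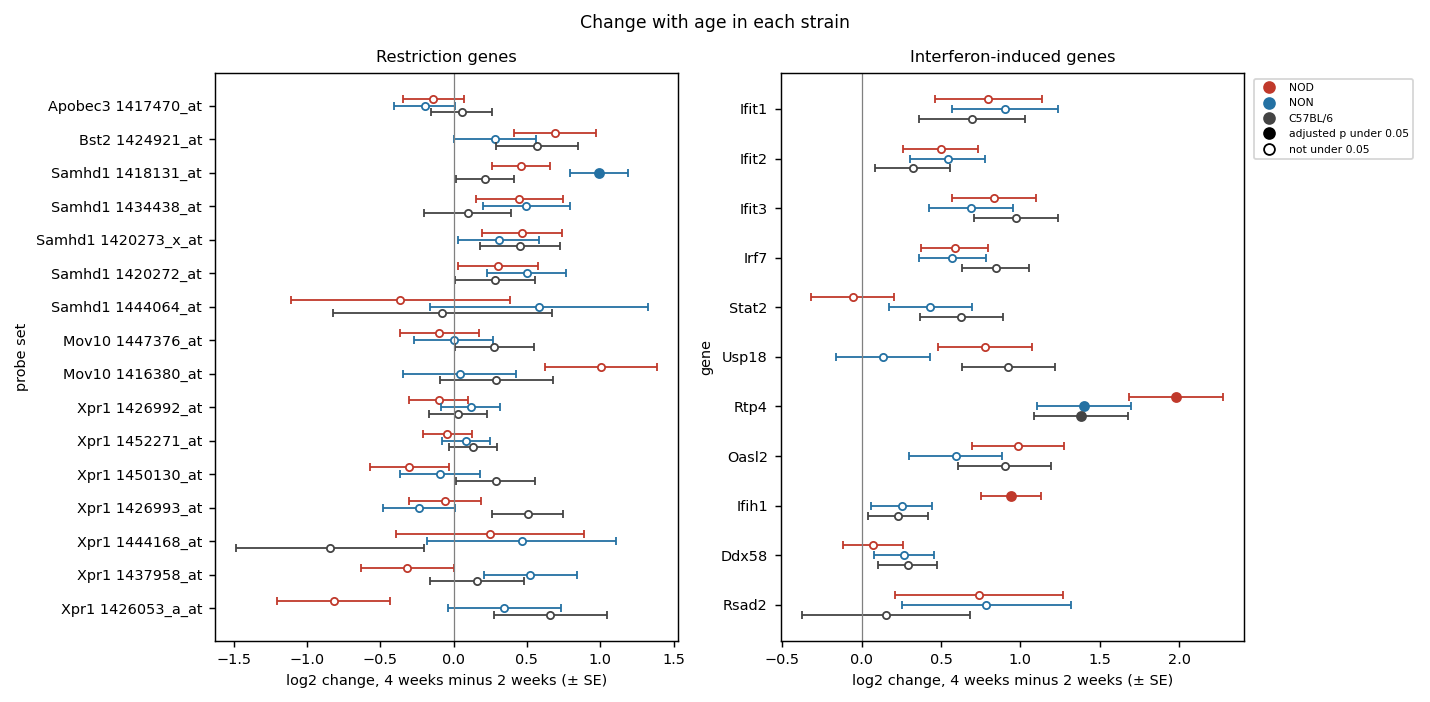
Change with age within each strain (log2, 4 weeks minus 2 weeks, ± SE) for the 16 probe sets of the 5 genes on the left and for 11 interferon-induced genes on the right; filled points have an adjusted p under 0.05. On the left the filled point is Samhd1 1418131_at in NON mice at 0.99, and on the right Rtp4 is filled in all 3 strains and Ifih1 in NOD.

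Bst2 (1424921_at, chromosome 8) had a higher mean at 4 weeks in each strain, and none of the changes passed the test. In NOD mice the signals were 506.3, 267.6, 257.8, 442.3 and 326.9 at 4 weeks, against 265.3, 236.0, 136.6, 229.0 and 215.2 at 2 weeks. In NON mice they were 300.8, 171.0, 325.0, 386.6 and 268.9 at 4 weeks, against 314.6, 280.6, 250.4, 247.3 and 113.9 at 2 weeks. In C57BL/6 mice they were 290.5, 233.9, 152.5, 214.4 and 387.2 at 4 weeks, against 145.6, 123.9, 228.7, 198.0 and 133.0 at 2 weeks. The ages overlapped in all 3 strains, in NOD by 1 mouse of each age.

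The log2 change of Bst2 was 0.69 ± 0.28 in NOD (limma adjusted p = 0.441), 0.28 ± 0.28 in NON (adjusted p = 0.743) and 0.57 ± 0.28 in C57BL/6 (adjusted p = 0.746). Averaged over strains it was 0.51 ± 0.16 (adjusted p = 0.0835). Means at 4 weeks were 360 ± 110 in NOD, 290.5 ± 79.5 in NON and 256 ± 88.5 in C57BL/6 mice. Means at 2 weeks were 216 ± 48.2 in NOD, 241 ± 76.3 in NON and 166 ± 45.4 in C57BL/6 mice, and all pairs of strains overlapped. The gene most like Bst2 was Sat1, an enzyme of polyamine breakdown (r = 0.828).

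Interferon-induced genes were followed as a list beside Bst2 and Samhd1. The list was chosen with earlier results of these data known, so its counts and p-values are read with that limit. It includes Ifih1 and Ifit3, which the study had already reported as higher at 4 weeks in these NOD mice. Of 11 measured, 2 rose in NOD mice, 1 in NON and 1 in C57BL/6, against 0.0418%, 0.812% and 0.0575% of all probe sets that rose in those strains. The median log2 change of the list was 0.78 in NOD, 0.57 in NON and 0.69 in C57BL/6, where the median of all probe sets was -0.002, 0.003 and 0.027. Averaged over strains 7 of 11 rose, where 3.19% of all probe sets changed. The interaction test passed for 0 of 11, so the changes were not shown to differ between strains. Across strains, limma's F-test passed for 1 of 11 at 4 weeks, where 1.51% of all probe sets passed, and for 0 at 2 weeks.

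Rtp4, a chaperone of receptor transport induced by interferon, averaged 507 ± 129 at 4 weeks and 123 ± 42.0 at 2 weeks in NOD mice (log2 1.98 ± 0.30, limma adjusted p = 0.00196). It also rose in NON (1.40 ± 0.30, adjusted p = 0.0144) and C57BL/6 mice (1.38 ± 0.30, adjusted p = 0.0247), the last of which was lost in 7 of 20 other settings. Ifih1, a sensor of viral RNA, averaged 199 ± 25.4 at 4 weeks and 99.9 ± 19.5 at 2 weeks in NOD mice (0.94 ± 0.19, adjusted p = 0.0393), a call lost in 12 of 20 other settings. The summed signal of 4 neutrophil and precursor markers was 16957 to 28784 at 4 weeks and 34526 to 78814 at 2 weeks in NOD. There 2 of 4 were lower at the threshold, where 0.146% of all probe sets changed in either direction. In NON mice it was 32655 to 46703 at 4 weeks and 29629 to 53109 at 2 weeks, with 0 of 4 called. In C57BL/6 mice it was 12852 to 22350 at 4 weeks and 36560 to 48779 at 2 weeks. There 3 of 4 were lower, where 0.402% of all probe sets fell. The part of these markers in the results was not tested.

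Mov10 (chromosome 3) was reported by 2 probe sets that hardly varied together over the mice (r = 0.087). The annotation names a RefSeq transcript as the source of 1416380_at but not of 1447376_at. Which of the 2 reports the Mov10 transcript was not tested. The brighter, 1447376_at, averaged 915 ± 135 in NOD, 882.5 ± 261 in NON and 855 ± 108 in C57BL/6 mice at 4 weeks, with log2 differences between strains of 0.10 or less in size. At 2 weeks it averaged 994 ± 233 in NOD, 931 ± 408 in NON and 710 ± 140 in C57BL/6 mice, and NOD minus C57BL/6 was 0.47 ± 0.31. The strains overlapped at both ages. The dimmer, 1416380_at, averaged 115 ± 55.9 at 4 weeks and 58.8 ± 32.5 at 2 weeks in NOD mice (log2 1.00 ± 0.38, limma adjusted p = 0.416). There NOD replicate 1 of 2 weeks gave 6.1 and the other 4 gave 58.5 to 91.9. The gene most like the brighter probe set was Elovl1, a fatty acid elongase (r = 0.780).

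Among partners of Mov10 in RNA silencing, Ago2, the slicer Argonaute, passed the test across strains at both ages (limma F-test, adjusted p = 0.000737 at 4 weeks and 0.00316 at 2 weeks). It was 1 of 9 measured to pass at each age, where 1.51% of all probe sets passed at 4 weeks and 1.66% at 2 weeks. Its signal at 4 weeks was 1648 ± 395 in NOD, 926 ± 120 in NON and 2924 ± 400 in C57BL/6 mice. The list was chosen with earlier results of these data known, so its p-values are read with that limit.

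Of genes that silence endogenous retroviruses, Uhrf1, which guides maintenance DNA methylation and is also a gene of dividing cells, fell with age in NON (log2 -1.64 ± 0.28, limma adjusted p = 0.00345) and in C57BL/6 mice (-1.37 ± 0.28, adjusted p = 0.0194). It was 1 of 12 in each strain, where 0.65% and 0.402% of all probe sets fell, and the C57BL/6 call was lost in 5 of 20 other settings. In NOD mice 0 of 12 passed. The interaction test passed for 0 of 12, so the change was not shown to differ between strains. Averaged over strains 2 of 12 fell, where 3.19% of all probe sets changed. The summed signal of 3 cycling cell markers (Mki67, Top2a and Cdk1) was 3104 to 5666 at 4 weeks and 4287 to 8518 at 2 weeks in NON mice. In C57BL/6 mice it was 1212 to 2199 at 4 weeks and 2786 to 5318 at 2 weeks, with 2 of 3 lower at the threshold. Their part in the result was not tested. Across strains 0 of the 12 silencing genes passed limma's F-test at 4 weeks (6 at an unadjusted p under 0.05). At 2 weeks 0 passed (8 at an unadjusted p under 0.05). Their summed signal at 2 weeks was 16691 to 17671 in NOD, 22380 to 30531 in NON and 21615 to 26946 in C57BL/6. At 4 weeks the strains overlapped in that sum. The brightest probe sets weigh most in it, and how often other sets of genes leave such a gap at 2 weeks was not tested. The part of dividing cells in it was not tested either.

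Xpr1 (chromosome 1) overlapped between all strains at both ages in its brightest probe set, 1426992_at. That probe set averaged 402 ± 80.4 in NOD, 422 ± 69.1 in NON and 430.2 ± 103 in C57BL/6 mice at 4 weeks. At 2 weeks it averaged 436 ± 109 in NOD, 391 ± 73.2 in NON and 416 ± 62.3 in C57BL/6 mice, and over the 30 mice it ran from 273.7 to 587.1. None of the 7 probe sets passed limma's test for age in any strain (21 tests, lowest adjusted p = 0.523), and log2 changes ran from -0.84 to 0.66. For 1426993_at, all 5 NOD mice of 2 weeks (115.6 to 202.2) lay above all 5 C57BL/6 mice (81.5 to 114.3), as for 1.95% of all probe sets, and at 4 weeks the same strains overlapped. Correlations between the 7 probe sets over the mice ran from 0.051 to 0.635 (21 pairs, median 0.19). The gene most like 1426992_at was Bcl2l11 (Bim), a proapoptotic gene (r = 0.767).

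Slc7a1, the cationic amino acid transporter that ecotropic murine leukemia viruses use for entry, fell with age in NON mice, with 1388 ± 127 at 4 weeks and 2493 ± 697 at 2 weeks (log2 -0.81 ± 0.17, limma adjusted p = 0.0113). It was 1 of 11 entry genes to pass there, where 0.65% of all probe sets fell, and without NON replicate 5 of 2 weeks it did not (-0.66, adjusted p = 0.0535). The entry receptor Xpr1 gave 0.11 ± 0.20 in the same mice (1426992_at, adjusted p = 0.878). Of 7 genes that handle phosphate or the signals Xpr1 reads, 0 changed with age in NON mice by limma (1 at an unadjusted p under 0.05). Across strains at 2 weeks, limma's F-test passed for 2 of the 11 entry genes and 1 of the 7 phosphate genes. At 4 weeks it passed for 0 of either list. Of all probe sets, 1.66% passed at 2 weeks and 1.51% at 4 weeks.

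**Figure D4:**
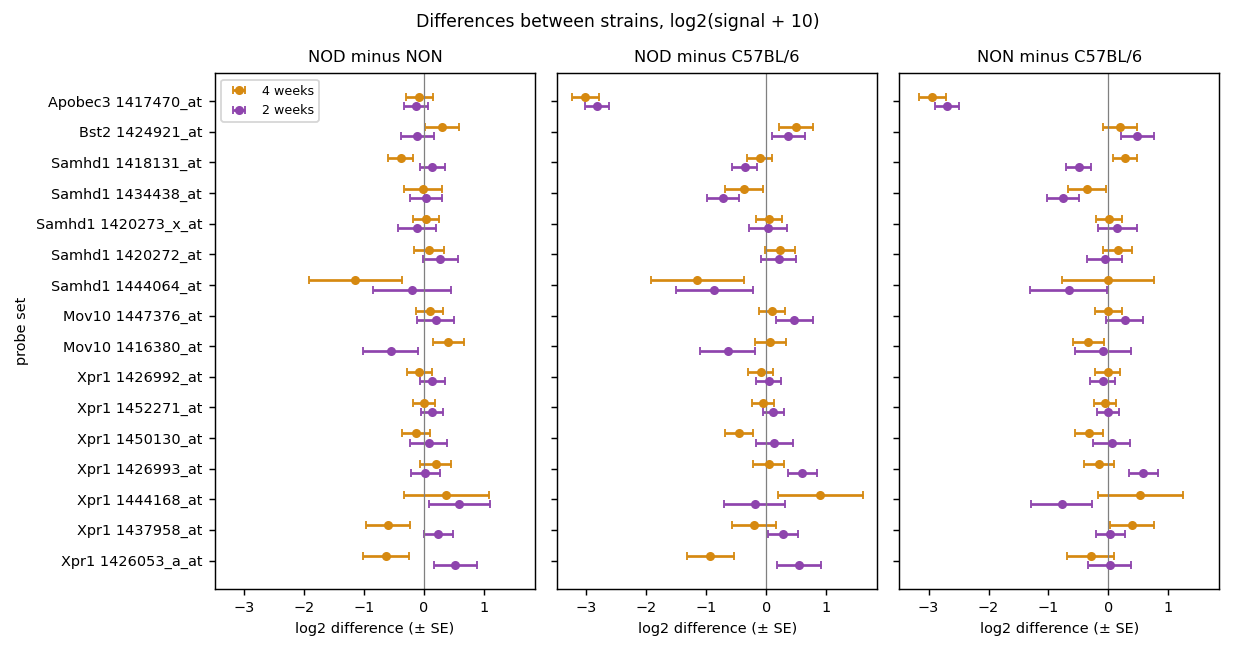
Log2 differences between strains (± SE) for the 16 probe sets, at 4 and 2 weeks: NOD minus NON, NOD minus C57BL/6 and NON minus C57BL/6. Apobec3 lies between -3.02 and -2.69 in the 2 panels against C57BL/6 and at -0.08 and -0.14 in NOD minus NON.

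Over the 16 probe sets and 3 pairs of strains at each age, 5 of 96 pairs did not overlap, 4 of them of Apobec3 and the other of Xpr1. Of all probe sets, 2.15% at 4 weeks and 2.1% at 2 weeks had all NOD mice below all C57BL/6 mice, and 1.84% at 4 weeks and 2.44% at 2 weeks had all NON mice below them. A further 1.95% had all NOD mice of 2 weeks above all C57BL/6 mice, the direction of the Xpr1 pair. Each share is of 1 pair of strains in 1 direction. The count takes 3 pairs and both directions, so it cannot be set against any 1 share. Between genes, the brightest probe sets correlated over the 30 mice from -0.38 to 0.33 (10 pairs). Within strains, 0 of 16 probe sets changed with age in NOD mice and 0 in C57BL/6 mice by limma (4 and 1 at an unadjusted p under 0.05), against 0.146% and 0.46% of all probe sets, and 1 did in NON mice, against 1.46%. No member passed limma's interaction test (2 at an unadjusted p under 0.05), as 0.00261% of all probe sets did.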

How the data were processed

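Spleen leukocyte RNA of 30 mice was hybridised to 60 arrays, 430A and 430B for each mouse. The authors made the deposited intensity values with MAS 5.0 and global scaling, and the trimmed mean (2%) of each array was 250, which differs from the target that the methods state. Both arrays of a mouse were joined by the mouse number of the labels, control probe sets and the 430B copies of 100 shared probe sets were left out, and 38293 of 45037 probe sets had a signal of at least 50 in 5 mice. Gene names came from the platform annotation (34945 probe sets with 1 symbol, 932 with several, 9160 with none). Tests used limma 3.58.1 in R 4.3.3 on log2(signal + 10), which understates changes of low genes: strains within an age (15 mice), age and interaction over all 30, with Benjamini-Hochberg adjustment at 0.05.

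The plain empirical Bayes fit was run first and is reported. Its counts differed from those of earlier work on these files, and a fit with the spread following the signal level, and the same with a robust option, were then run with the results known. With the trend alone, 82, 755 and 200 probe sets changed with age in NOD, NON and C57BL/6, and with the robust option 78, 737 and 188, against 56, 560 and 176 reported. The plain fit was kept. The age change averaged over strains was also added after seeing the data. Members and gene lists were chosen with earlier results of these data known. All member probe sets are reported, the brightest standing for its gene; likeness is the Pearson correlation over 30 mice (top 3), and list genes are named where they passed the F-test at both ages or an age change. Scripts were tested on simulated data. Alternatives were other pseudocounts, filters, scalings, a Gapdh covariate, a replicate block, the methods' analysis of variance and each mouse left out.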

Additional observations from a re-analysis of the deposited data

Results flagged for a closer look

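Of 96 groups of 5 mice (16 probe sets in 6 groups), 6 held a mouse far from the other 4, where chance alone flags about 1 in 20 groups. Bst2 1424921_at was 113.9 in NON replicate 5 of 2 weeks, with the others at 247.3 to 314.6. Samhd1 1434438_at was 641.9 in NOD replicate 1 of 4 weeks, with the others at 1238 to 1556. Samhd1 1420273_x_at was 128.8 in C57BL/6 replicate 5 of 2 weeks, with the others at 383.5 to 550.6. Samhd1 1444064_at was 406.3 in NON replicate 2 of 2 weeks, with the others at 38.3 to 60.9, and that mouse had a Gapdh ratio of 4.00. Mov10 1416380_at was 6.1 in NOD replicate 1 of 2 weeks, with the others at 58.5 to 91.9. Xpr1 1437958_at was 31.0 in C57BL/6 replicate 2 of 2 weeks, with the others at 76.0 to 88.0. Apobec3 and the Samhd1 probe set that rose in NON mice had no such mouse.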

How the results depend on the processing

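The rise of Samhd1 1418131_at in NON mice passed in all 20 other settings (log2 0.84 to 1.11, adjusted p 0.00333 to 0.0479), and the Apobec3 differences from C57BL/6 stayed between -3.12 and -2.48. The averaged Bst2 change passed in 2 of 40 settings, without NON replicate 2 of 4 weeks (0.57, adjusted p = 0.0455) and without C57BL/6 replicate 3 of 4 weeks (0.57, adjusted p = 0.0482). Of the named list genes, Ifih1 in NOD passed in 8 of 20 settings (0.0512 with the robust option, which was chosen after seeing the data) and Tk1 in NON in 10 of 20. Rtp4 in C57BL/6 passed in 13, Uhrf1 in C57BL/6 in 15, and Rtp4 and Slc7a1 in NON in 19 each (Rtp4 0.0529 without NON replicate 1 of 4 weeks); the cause was not tested. Median scaling ended the calls of Ifih1 (adjusted p = 0.0552) and Tk1 (0.0615), and the Gapdh covariate that of Tk1 (0.0593). Leaving out 1 mouse ended the call of Ifih1 for every NOD mouse but replicate 5 of 2 weeks (adjusted p up to 0.126), and of Tk1 for NON replicates 1, 3, 4 and 5 of 2 weeks and 1, 2 and 5 of 4 weeks (up to 0.143). It ended that of Rtp4 for C57BL/6 replicates 1, 2, 4 and 5 of 2 weeks and 1, 4 and 5 of 4 weeks (up to 0.116), and that of Uhrf1 for C57BL/6 replicates 1, 2 and 5 of 2 weeks and 3 and 5 of 4 weeks (up to 0.0921). Median scaling moved the median NOD minus C57BL/6 difference of all probe sets to -0.071 at 4 weeks, against 0.043, and to -0.072 at 2 weeks, against 0.073.

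Counts over all probe sets moved more. The interaction passed for 1 probe set, for 0 with a floor of 100, with the trend and with the robust option, and for 2 with the Gapdh covariate. Scaling by medians gave 18 age changes in NOD against 56 and 321 in NON against 560. For NOD against the mean of NON and C57BL/6, which a difference from 1 of them can pass, the Gapdh covariate gave 147 probe sets at 4 weeks, against 308 without it, and 127 at 2 weeks, against 191. An adjusted p under 0.005 left 181 of 578 strain differences at 4 weeks and 202 of 635 at 2 weeks. Same-numbered mice did not vary together (mean r 0.03 over 75 pairs, against -0.007 over 300 others, 14 of 30 mice closest to their own number), and a replicate block gave 367 strain differences at 4 weeks and 201 for NOD against that mean. The block ended the calls of Ifih1 in NOD (0.94, adjusted p = 0.0599) and Tk1 in NON (-1.21, adjusted p = 0.0507), and changed no other call named.

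Leaving out 1 mouse gave 12 to 98 age changes in NOD, 159 to 909 in NON and 74 to 213 in C57BL/6, 1 to 3 interactions, and at 4 weeks 381 to 624 strain differences and 164 to 450 for NOD against the mean of NON and C57BL/6. The lowest counts came without NOD replicate 3 of 2 weeks (12), NON replicate 5 of 2 weeks (159) and C57BL/6 replicate 2 of 2 weeks (74).

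The Apobec3 difference NOD minus NON at 4 weeks ran from -0.21 to 0.06 over the settings. The age changes whose sign turned did not pass under any setting. Under pseudocount 1, Mov10 1447376_at in NON was 0.001. Median scaling gave -0.0075 for Apobec3 in C57BL/6, and for Xpr1 1426992_at -0.0321 in C57BL/6 and -0.002 averaged. The Gapdh covariate gave 0.13 and -0.0074 for Mov10 1447376_at and 1416380_at in NON, and 0.0037 in C57BL/6 and -0.0512 averaged for Samhd1 1444064_at. With 1 mouse left out, Xpr1 1426992_at ran from -0.23 to 0.0097 in NOD, -0.0047 to 0.19 in NON, -0.0891 to 0.14 in C57BL/6 and -0.0284 to 0.051 averaged. Mov10 1447376_at ran from -0.29 to 0.17 in NON and -0.0349 to 0.12 averaged, and 1416380_at from -0.0534 to 0.12 in NON and -0.0386 to 0.45 in C57BL/6. Samhd1 1444064_at ran from -0.425 to 0.41 in C57BL/6 and -0.11 to 0.24 averaged, 1434438_at from -0.0353 to 0.24 in C57BL/6, and Apobec3 from -0.0071 to 0.14 in C57BL/6.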
